A study of Mus musculus with 12 samples.

Results

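Anti-PD-1 given alone was compared with isotype control in T cells taken from pancreatic tumors, across the 748 endogenous genes of a metabolic and immune gene panel. The members were chosen by their labels: 3 samples of the group Scram+aPD-1 and 3 of the group Scram+IgG, which makes 6 of the 12 samples of the series. All 6 came from female C57BL/6 mice with subcutaneous tumors of KPC.Luc, a cell line from a mouse model of pancreatic ductal adenocarcinoma that carries luciferase. All 6 also shared the peptide arm, a scrambled peptide with no intended target, given subcutaneously at 10 µg daily. Scram+aPD-1 mice received 200 µg of anti-PD-1 antibody intraperitoneally every 3 days over 10 days, and Scram+IgG mice received the same amount of isotype IgG on the same schedule. The other 2 groups received ANT008, a peptide antagonist of the receptors for vasoactive intestinal peptide, with isotype IgG (ANT008+IgG) or with anti-PD-1 (ANT008+aPD-1). T cells were captured with magnetic beads against CD90.2, and their stated purity was between 80% and 85%. There were 3 mice in each group and 1 sample from each mouse.

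PD-1, encoded by Pdcd1, is an inhibitory receptor that T cells display after antigen stimulation. Its ligands, PD-L1 (Cd274) and PD-L2 (Pdcd1lg2), are carried by tumor and myeloid cells, and their binding dampens signaling through the T cell receptor and CD28. Antibodies that block PD-1 remove this brake, and activated T cells are known for high glycolysis, nutrient uptake and cytokine production. Pancreatic tumors are known for responding poorly to such antibodies and for a large myeloid infiltrate.

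The nCounter instrument counts fluorescent barcodes on single RNA molecules without amplification, with 1 lane for each mouse. The 6 lanes held between 93480 and 1486646 endogenous counts, and between 517 and 648 endogenous genes lay above the lane's background (2 SD above the mean count of the 8 probes that have no target). Values below are scaled counts, which are counts divided by a lane size from 3 housekeeping genes, Dnajc14, Oaz1 and Ubb. Lane size did not separate the groups (exact permutation test, two-sided p = 0.5, where 3 against 3 cannot go below 0.1). The 2 lowest-count lanes were Scram+IgG mouse 2, with 256703 counts, and Scram+aPD-1 mouse 3, with 93480. In these lanes Ubb, a housekeeping ubiquitin gene, had 5.27 and 4.24 counts for each count of the housekeeping gene Dnajc14, against 10.3 to 18.6 in the other 4 lanes. Scram+aPD-1 mouse 3 had the highest scaled count of the 6 lanes in 285 of the 640 genes tested, against 32 to 118 genes for each of the others. The median log2 fold change of all tested genes was 0.15, and it was -0.07 without Scram+aPD-1 mouse 3. Scram+IgG mouse 1 also carried a flag in the deposited counts, as did ANT008+IgG mouse 1. The flag's meaning is not given in the sources used here. The positive control probes summed to 15597 counts in Scram+IgG mouse 1, the lowest of the 6 lanes, and to 56747 in Scram+IgG mouse 2, the highest.

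No gene passed the test. At an FDR below 0.1 in edgeR's quasi-likelihood test, anti-PD-1 raised 0 and lowered 0 of the 640 genes that exceeded background in 3 or more of the 12 lanes (0% each). The lowest adjusted p was 0.988, and every gene named below had an adjusted p of at least that value in this comparison. At an unadjusted p below 0.05 there were 7 genes with a higher level after anti-PD-1 (1.09% of those tested) and 0 with a lower one (0%). DESeq2 and limma also gave 0 genes at that FDR. At an unadjusted p below 0.05 they gave 7 and 5 genes, which included 6 and 3 of the 7 genes from edgeR. limma's voom with sample weights differed and called 93 genes higher and 50 lower, with Scram+IgG mouse 1 at a weight of 0.341, the lowest of these 6 lanes, and Scram+IgG mouse 3 at 4.69. The median standard error of a log2 fold change was 0.52. Of all tested genes, 27 had a fold change above 2-fold upward and 2 downward, and only Ptgs2 lay beyond 4-fold.

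**Figure D1:**
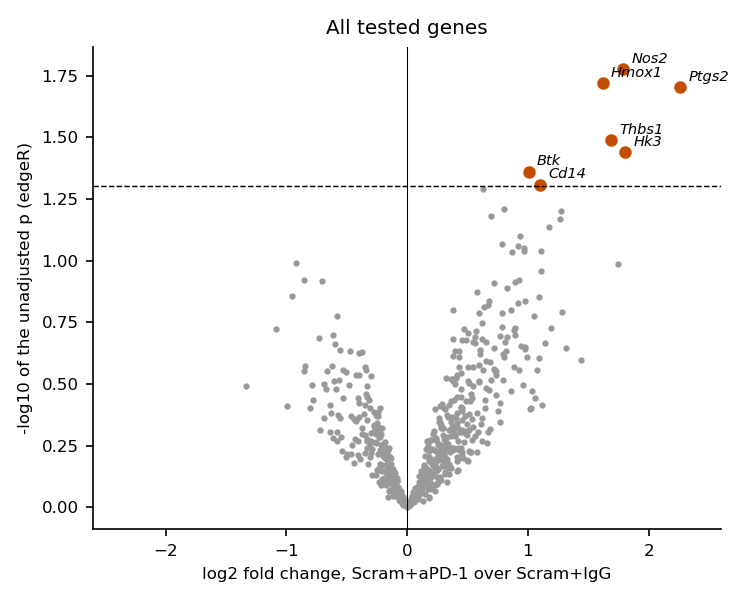
The log2 fold change of each of the 640 tested genes, Scram+aPD-1 over Scram+IgG, is plotted against -log10 of its unadjusted p in edgeR. The dashed line marks the threshold of 0.05, and the 7 named genes above it all lie to the right, from Btk at 1.01 to Ptgs2 at 2.26.

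The 7 genes were Ptgs2, Hk3, Nos2, Thbs1, Hmox1, Cd14 and Btk. Ptgs2 encodes cyclooxygenase-2, which makes prostaglandins, and Nos2 encodes inducible nitric oxide synthase, which consumes arginine. Hmox1 encodes heme oxygenase-1, which breaks down heme under oxidative stress, and Hk3 encodes a hexokinase best known from myeloid cells. Thbs1 encodes the secreted matrix protein thrombospondin-1, Cd14 a lipopolysaccharide co-receptor of monocytes and macrophages, and Btk a kinase of B cell and myeloid receptor signaling. What an nCounter count stands for is the number of molecules holding 1 target of 100 bases per gene. The targets of 3 of these genes, from the panel's own definition, are shown with every base in lower case because no stretch was singled out.

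Ptgs2 (chromosome 1, 48% G and C): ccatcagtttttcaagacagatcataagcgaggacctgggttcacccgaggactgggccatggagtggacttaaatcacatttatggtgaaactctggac
Hmox1 (chromosome 8, 53% G and C): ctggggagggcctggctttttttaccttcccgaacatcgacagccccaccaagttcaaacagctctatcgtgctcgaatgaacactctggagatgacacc
Hk3 (chromosome 13, 53% G and C): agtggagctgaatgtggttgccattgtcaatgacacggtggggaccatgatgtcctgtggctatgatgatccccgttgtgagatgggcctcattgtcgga

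The targets of all tested genes ranged from 38% to 68% G and C, with a median of 48%, so these 3 lie within that range. Counts of different genes rest on different probes, so a ratio of 2 genes is compared below only between lanes.

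Ptgs2 had scaled counts of 302, 162 and 312 in Scram+IgG mice 1 to 3, and of 823, 240 and 2672 in Scram+aPD-1 mice 1 to 3. The log2 fold change was 2.26 ± 0.84 (SE, n = 3 a group, edgeR). Scram+aPD-1 mouse 2 lay among the controls, so the groups overlapped, and the highest value came from the lowest-count lane. Without that mouse the log2 fold change was 1.04. Hk3 had the same order of treated mice, with 750, 363 and 710 in the controls and 1853, 548 and 3996 after anti-PD-1. Its log2 fold change was 1.81 ± 0.77 (SE), and 0.98 without Scram+aPD-1 mouse 3.

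Nos2 had scaled counts of 62.6, 16.2 and 21.0 in the controls and of 123, 41.2 and 197 after anti-PD-1, with a log2 fold change of 1.79 ± 0.64 (SE). Its value in Scram+IgG mouse 2 was close to that lane's scaled background of 15.5, and the log2 fold change was 1.48 without that mouse. Hmox1 had 332, 115 and 176 in the controls and 1024, 331 and 561 after anti-PD-1, with a log2 fold change of 1.62 ± 0.60 (SE). For both genes a single pair of mice overlapped, since Scram+IgG mouse 1 was above Scram+aPD-1 mouse 2. Hmox1 was the one gene of the 7 that kept an unadjusted p below 0.05 without Scram+aPD-1 mouse 3, with a log2 fold change of 1.70.

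Thbs1 had 97.9, 53.3 and 107 in the controls and 274, 86.7 and 492 after anti-PD-1, a log2 fold change of 1.69 ± 0.70 (SE). Cd14 had 221, 100 and 149 against 344, 147 and 525, a log2 fold change of 1.10 ± 0.50 (SE). Btk had 104, 29.5 and 65.7 against 87.9 to 160, a log2 fold change of 1.01 ± 0.45 (SE). In all 7 genes Scram+aPD-1 mouse 2 was the lowest treated mouse and lay within the range of the controls. Leaving out either lowest-count lane left at most 1 of the 7 with an unadjusted p below 0.05, although all 7 kept their direction. Exact permutation of the 6 values gave p between 0.2 and 0.3 for these genes.

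**Figure D2:**
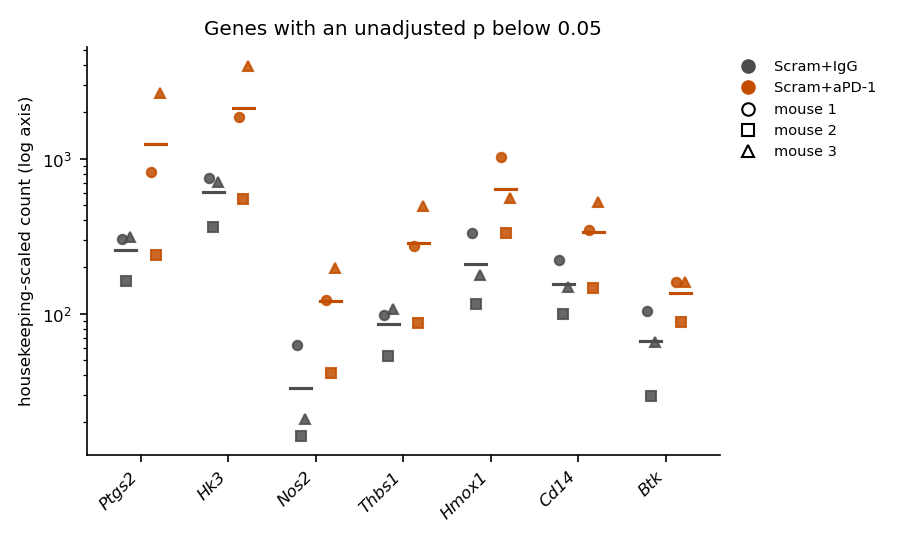
Housekeeping-scaled counts (log axis) of the 7 genes that had p below 0.05 before adjustment, with gray for Scram+IgG, orange for Scram+aPD-1, a symbol for each mouse number and a line at the group mean. Scram+aPD-1 mouse 2 (squares) lies near the controls in every gene, and mouse 3 (triangles) is the highest in Ptgs2, Hk3, Nos2, Thbs1, Cd14 and, by less than 1 scaled count over mouse 1, Btk.

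Markers of myeloid cells were examined beside these genes, of which Nos2 and Cd14 are themselves in the list. The list of 10 myeloid markers had a median log2 fold change of 0.80, with 9 of 10 above 0, against 0.15 and 401 of 640 over all tested genes. As each mouse was left out the list's median ran from 0.39, with 7 of 10 above 0, to 1.56, the lowest without Scram+aPD-1 mouse 1 and the highest without Scram+IgG mouse 1. It was 0.35 without both lowest-count lanes. None passed the FDR threshold, and Nos2 and Cd14 were the 2 with an unadjusted p below 0.05. Itgam (CD11b) had 276, 50.5 and 86.8 in the controls and 371, 179 and 234 after anti-PD-1, a log2 fold change of 0.92. Arg1, the arginase of suppressive myeloid cells, had 2052, 537 and 847 against 3728, 652 and 2389, a log2 fold change of 0.98. Both genes overlapped between the groups, with Scram+IgG mouse 1 inside the treated range. Cd68 and Tlr2 had log2 fold changes of 0.79 and 0.80, and Cd163, the one marker with a lower mean level after anti-PD-1, lay near background. The summed scaled counts of the list ran from 1095 to 4339 in the controls and from 1924 to 6613 after anti-PD-1, which was 0.448% to 1.92% and 0.955% to 2.51% of the endogenous counts. No marker of the list was at 0, and 8 of 10 were above background in all 6 lanes. The part of other cells in these differences was not tested, and in bulk RNA more cells of a type and more RNA per cell cannot be told apart.

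Of 5 B cell markers only Btk was above background in all 6 lanes, and Tnfrsf17 was above it in none. The 6 stromal, endothelial and tumor markers had a median log2 fold change of 0.04, with Thbs1 at the top and Col6a3 at -0.62. The 5 NK cell markers had a median of -0.33, which was 1.23 without Scram+IgG mouse 1 and -0.74 without Scram+IgG mouse 2.

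T cell markers were present in every lane. All 16 were above background in all 6 lanes, but their share of the endogenous counts was 3.14%, 0.636% and 0.608% in the controls and 1.92%, 1.42% and 1.26% after anti-PD-1. Scram+IgG mouse 1 stood above the treated mice and the other 2 controls below them. The median log2 fold change of the list was 0.15, the same as over all genes, and 12 of 16 were above 0. Without Scram+IgG mouse 1 the median was 1.55, with 16 of 16 above 0 and 14 of 16 at an unadjusted p below 0.05, against a median of 0.13 and 81 of 640 over all genes. No gene reached an FDR below 0.1 without this mouse either, with a lowest adjusted p of 0.259. Without either of the other controls, mouse 2 or mouse 3, the list's median was -0.21 and -0.22, and without Scram+aPD-1 mouse 1 it was -0.15, so its direction rested on single mice of both groups.

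**Figure D3:**
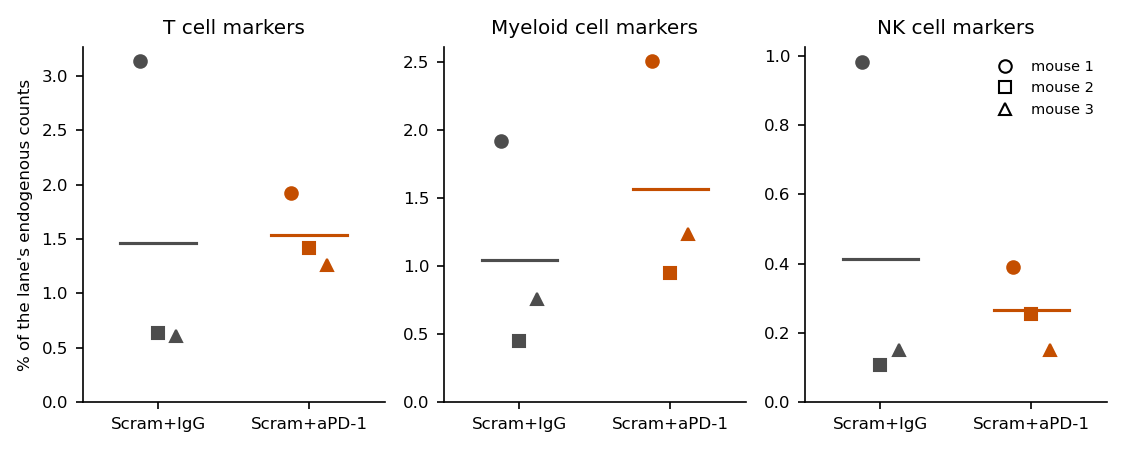
Share of each lane's endogenous counts (%) taken by the T cell, myeloid and NK cell marker lists, with a symbol for each mouse number and a line at the group mean. Scram+IgG mouse 1 (gray circle) holds the highest T cell share, 3.14%, and the other 2 controls lie below the 3 treated mice in that panel.

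Among the chains of the T cell receptor complex, Cd3e had scaled counts of 595, 56.2 and 56.6 in the controls and of 273, 163 and 69.7 after anti-PD-1. Its log2 fold change was -0.47 ± 0.88 (SE), and 1.61 without Scram+IgG mouse 1. Its 100-base target on chromosome 9 is shown with that of Cd28, on chromosome 1, the co-receptor whose signal PD-1 opposes.

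Cd3e: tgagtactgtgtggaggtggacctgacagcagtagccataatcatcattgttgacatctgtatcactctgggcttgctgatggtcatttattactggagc
Cd28: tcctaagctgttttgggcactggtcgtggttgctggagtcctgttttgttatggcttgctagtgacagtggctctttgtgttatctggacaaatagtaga

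Of the 16 genes of the receptor complex, coreceptors and proximal signaling, 11 had a log2 fold change above 0 and the median was 0.20, which ran from -0.19 without Scram+IgG mouse 3 to 1.45 without Scram+IgG mouse 1. Cd28 had 398, 142 and 152 in the controls and 446, 210 and 918 after anti-PD-1, a log2 fold change of 1.17 ± 0.60 (SE), which was 0.51 without Scram+aPD-1 mouse 3. The groups overlapped because Scram+IgG mouse 1 was above Scram+aPD-1 mouse 2. Lat, the adaptor that links the receptor to downstream kinases, had a log2 fold change of 0.97, and Zap70, the kinase that phosphorylates it, 0.82. Among the 5 co-stimulatory receptors Cd40lg, which was not above background in all 6 lanes, stood at 1.27, Icos at 0.08 and Cd27 at 0.00. None of these genes had an unadjusted p below 0.05.

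The coreceptors went different ways. Cd4 had 261, 103 and 107 in the controls and 396, 135 and 377 after anti-PD-1, a log2 fold change of 0.94 ± 0.49 (SE). Cd8a had 535, 43.8 and 47.1 against 180, 135 and 90.2, a log2 fold change of -0.61 ± 0.93 (SE), and 1.59 without Scram+IgG mouse 1. Within a lane, the ratio of Cd4 to Cd8a counts was 0.487, 2.35 and 2.28 in the controls and 2.20, 0.998 and 4.18 after anti-PD-1. Scram+IgG mouse 1 had the lowest ratio of the 6 lanes, and the groups overlapped. The ratio in Scram+aPD-1 mouse 3 rests on 92 and 22 counts.

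Checkpoint genes included the target of the antibody. Pdcd1 had 696, 166 and 162 in the controls and 470, 262 and 943 after anti-PD-1. The log2 fold change was 0.70 ± 0.65 (SE), which became 1.76 when Scram+IgG mouse 1 was left out and 0.10 when Scram+aPD-1 mouse 3 was. The antibody binds the protein, so the transcript is no check of the treatment. The ligand genes Cd274 and Pdcd1lg2 had log2 fold changes of 0.83 and 0.40. Ctla4, a second inhibitory receptor, had 392, 52.4 and 64.6 in the controls and 324, 245 and 189 after anti-PD-1, a log2 fold change of 0.58. As with Cd3e, the treated mice lay between Scram+IgG mouse 1 and the other controls. Of the 10 genes of the list 9 were above 0, with a median of 0.42, and none had an unadjusted p below 0.05. That median ran from 0.14 without Scram+IgG mouse 2 to 1.31 without Scram+IgG mouse 1, and was -0.05 without both lowest-count lanes.

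Effector genes differed in their order across mice. Gzmb (granzyme B) had 845, 49.5 and 119 in the controls and 801, 283 and 213 after anti-PD-1, a log2 fold change of 0.36, and 2.35 without Scram+IgG mouse 1. Ifng, the cytokine interferon-γ, had 148, 8.57 and 16.0 against 87.9, 69.7 and 49.2, with log2 fold changes of 0.26 and 2.46 with and without that mouse. In both genes the other 2 controls were below all treated mice. For Ifng, however, the value of Scram+IgG mouse 2 was below its lane's scaled background of 15.5. That of Scram+aPD-1 mouse 3 was close to its own, 46.3. Prf1 (perforin) differed from these, with 658, 273 and 214 against 552, 197 and 1389, and its log2 fold change of 0.89 was -0.03 without Scram+aPD-1 mouse 3. Tnf had a log2 fold change of 0.92 and stayed between 0.59 and 1.60 as each mouse was left out. The chemokine Ccl5 had -0.58, and 1.70 without Scram+IgG mouse 1. Over the 17 genes the median was 0.27, with 13 above 0 and none at an unadjusted p below 0.05. The median was 1.51, with 17 of 17 above 0 and 9 at an unadjusted p below 0.05, when Scram+IgG mouse 1 was left out. It was -0.15 when either of the other controls was left out and -0.03 when Scram+aPD-1 mouse 3 was.

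The 5 genes of regulatory T cells all lay above 0 with every mouse kept, with a median of 0.37, between 0.20 and 1.01 as each mouse was left out. Without Scram+aPD-1 mouse 3 the count above 0 was 4 of 5. Without both lowest-count lanes it was 3 of 5, with a median of 0.07. Foxp3, their defining transcription factor, had 39.7, 13.3 and 16.4 in the controls and 30.4, 28.5 and 32.8 after anti-PD-1, a log2 fold change of 0.37 ± 0.50 (SE). Its treated values were close together and inside the control range. The last of them rests on 8 counts, below the lane's background of 11.3. The value of Scram+IgG mouse 2 rests on 14 counts, also below its lane's background, 16.3. Per Cd4 count, Foxp3 counts were 0.152, 0.130 and 0.153 in the controls and 0.0768, 0.212 and 0.0870 after anti-PD-1, which overlapped.

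**Figure D4:**
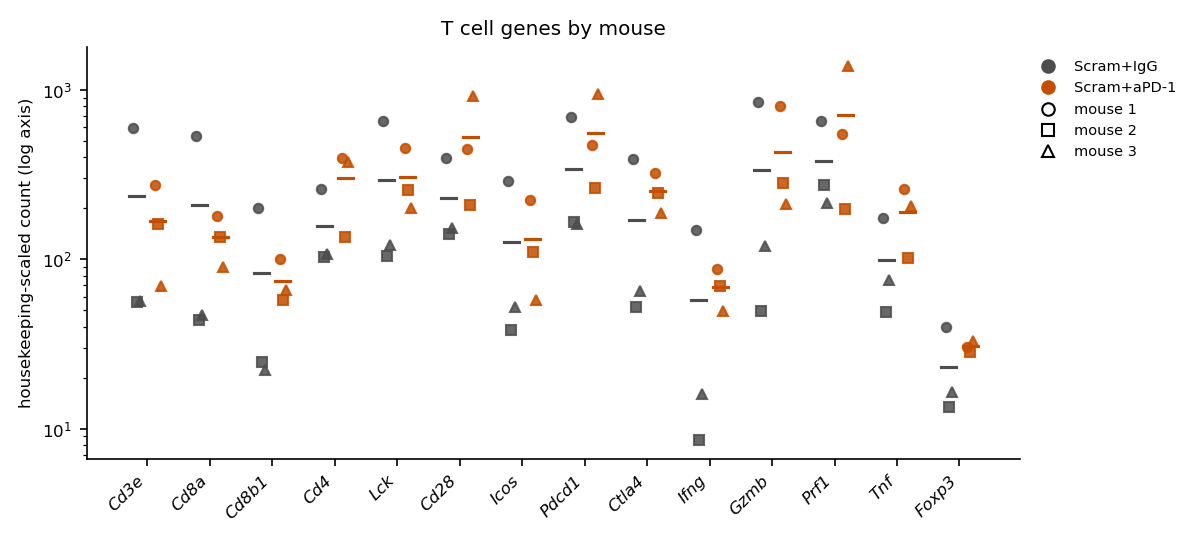
Housekeeping-scaled counts (log axis) of 14 T cell genes, gray for Scram+IgG and orange for Scram+aPD-1, a symbol for each mouse number and a line at the group mean. Scram+IgG mouse 1 (gray circles) is above the other 2 controls in each gene, from Cd3e at 595 against 56.2 and 56.6 to Foxp3 at 39.7 against 13.3 and 16.4.

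The 11 genes of antigen presentation by MHC all had a log2 fold change above 0, with a median of 0.50. Without Scram+aPD-1 mouse 1 the count was 7 of 11, and without Scram+IgG mouse 2 or Scram+aPD-1 mouse 3 it was 9 of 11, with medians from 0.32 to 0.82 as each mouse was left out. H2-T23, which encodes the nonclassical class I molecule Qa-1, led with 871, 1503 and 1019 in the controls and 1406, 797 and 6070 after anti-PD-1, a log2 fold change of 1.28. That value rested on Scram+aPD-1 mouse 3. ANT008+IgG mouse 2, whose lane also had a low Ubb to Dnajc14 ratio (4.67), had 3082. ANT008+aPD-1 mouse 1, with a ratio of 5.25, had 829, which rests on 23 counts, and ANT008+aPD-1 mouse 3 (7.26) had 3333. Ubb and Dnajc14 both enter the lane size, so the scaled count is not independent of the ratio. A link beyond that was not tested. H2-K1 and the class II gene H2-Aa had 0.81 and 0.34. In the interferon response list Cxcl9, a chemokine that attracts T cells, had 0.86, and 5 of 5 genes lay above 0 with a median of 0.27. That count was 4 of 5 when any mouse other than Scram+IgG mouse 1 was left out.

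Glycolysis genes had a median log2 fold change of 0.32, with 20 of 24 above 0. Without Scram+aPD-1 mouse 3 these became -0.01 and 12 of 24, next to -0.07 and 285 of 640 over all genes. Hk2, the hexokinase induced in activated T cells, had 327, 409 and 516 in the controls and 640, 430 and 1635 after anti-PD-1, a log2 fold change of 1.10, and 0.36 without that mouse. Ldha, which makes lactate, had 0.33 and then 0.03. Slc2a1, the glucose transporter GLUT1, had 109, 50.5 and 56.3 against 101, 138 and 119, and its log2 fold change of 0.72 was the same to 2 decimals without that mouse. Slc16a3, a lactate exporter, had 1.11 and then 1.23. Pdk4, which was not above background in all 6 lanes, had -0.86, and Eno3 had -0.53. Without Scram+aPD-1 mouse 3 the log2 fold changes of Hk2 and Ldha thus fell, while those of Slc2a1 and Slc16a3 did not. The groups of Slc2a1 overlapped, with Scram+IgG mouse 1 above Scram+aPD-1 mouse 1. Only Hk3 of the glycolysis list had an unadjusted p below 0.05.

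The mitochondrial lists were near 0. Of 12 genes listed for the tricarboxylic acid cycle, 3 were above 0, with a median of -0.03. They ranged from -0.66 for Idh1, which encodes a cytosolic enzyme outside the cycle itself, to 0.33 for Idh2. Of 33 genes of the respiratory chain and ATP synthase, 18 were above 0, with a median of 0.04. Without Scram+aPD-1 mouse 3 the latter became -0.33 and 4 of 33. Ndufb10, a complex I subunit, had 430, 622 and 531 in the controls and 392, 454 and 373 after anti-PD-1, a log2 fold change of -0.37. One treated value overlapped the controls.

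Lipid genes had a median of 0.06 over 16 genes. Fabp5, a fatty acid carrier, had 836, 424 and 643 in the controls and 1674, 794 and 1246 after anti-PD-1, a log2 fold change of 0.96 with and without Scram+aPD-1 mouse 3. Its groups overlapped only through Scram+IgG mouse 1 and Scram+aPD-1 mouse 2. Cd36, a fatty acid receptor that was not above background in all 6 lanes, had 1.10, and Fasn, the fatty acid synthase, -0.30. Solute carriers had a median of 0.22 over 19 genes, nucleotide synthesis 0.11 over 20, and cell cycle and DNA replication 0.21 over 11, with Mki67 at 0.25. The list of Myc, Hif1a and mTOR regulators had a median of -0.04 over 27 genes, with Myc at -0.30. Over these lists and the mitochondrial ones, no gene had an unadjusted p that passed 0.05.

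**Figure D5:**
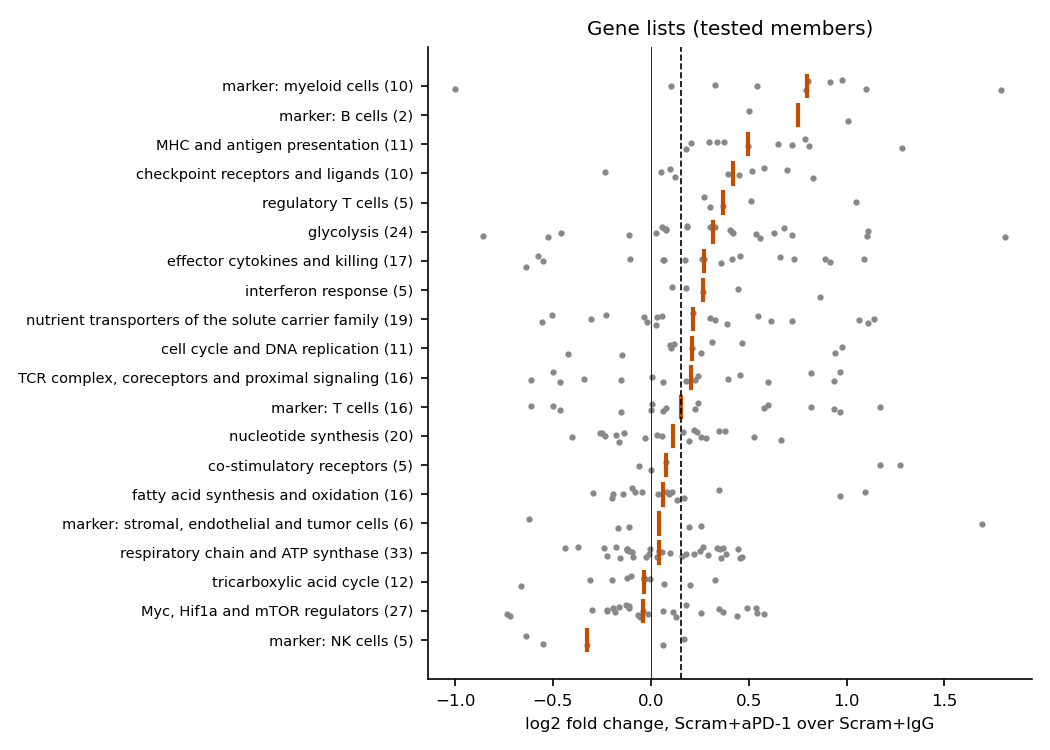
Log2 fold change, Scram+aPD-1 over Scram+IgG, of each tested member (gray points) of the gene lists, with the list median as an orange bar and the number tested in parentheses. The dashed line is the median of all 640 tested genes, 0.15, and the myeloid list has the highest median at 0.80 and the NK cell list the lowest at -0.33.

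In some genes the groups did not overlap, mostly by small amounts. In 19 of the 640 tested genes all 3 treated mice were above all 3 controls (2.97% of those tested), and in 7 all were below (1.09%). None of these genes had an FDR below 0.1 or an unadjusted p below 0.05. Hif1a, which encodes the oxygen-sensitive subunit of the hypoxia-inducible factor, had 1261, 1152 and 1451 in the controls and 1679, 1622 and 1680 after anti-PD-1. The log2 fold change was 0.37 ± 0.34 (SE), and it stayed between 0.29 and 0.46 as each mouse was left out.

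Timeless, a component of the replication fork, had 91.2, 65.7 and 74.9 in the controls and 110, 99.1 and 156 after anti-PD-1, a log2 fold change of 0.63 ± 0.29 (SE). Ncaph, a condensin subunit, had 0.46, Fnip1, a partner of folliculin in nutrient sensing, 0.43, and Tet2, which oxidizes methylcytosine in DNA, 0.38. The glycolytic genes Gapdh and Hk1, at 0.30 and 0.19, the interferon-responsive factor Irf1, at 0.27, and the thioredoxin gene Txn1, at 0.32, were also free of overlap. All of these were above background in all 6 lanes. Il6, which encodes interleukin-6, also did not overlap, with 15.0, 20.0 and 26.1 in the controls and 33.5, 37.3 and 45.1 after anti-PD-1, but the last value was below the scaled background of its lane, 46.3. The 5 genes above background in all 6 lanes that separated downward were Map2k3, a p38 kinase kinase, at -0.33, Atxn7 at -0.30, Rictor, a subunit of the second mTOR complex, at -0.22, Kat6a at -0.19 and Ctcf at -0.16. Exact permutation gives each such gene p = 0.1, the smallest that 3 against 3 allows.

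Against the other arms, anti-PD-1 alone was also compared directly in the same fit. Between Scram+aPD-1 and ANT008+IgG, 0 of 640 genes had an FDR below 0.1 in edgeR, and 7 had an unadjusted p below 0.05. Nos2 was one of them, with 123, 41.2 and 197 after anti-PD-1 and 39.3, 25.8 and 39.9 after ANT008, a log2 difference of 1.73 (edgeR, adjusted p = 0.999). The 3 treated mice lay above the 3 ANT008+IgG mice, of which mouse 2 was below background. Hmox1 and Ptgs2 differed by 0.90 each, and Hk3 by 1.26, none with an unadjusted p below 0.05. Ptgs2 in ANT008+IgG ran from 260 to 1456, with the highest in mouse 2, whose Ubb to Dnajc14 ratio was near that of Scram+aPD-1 mouse 3. Among other lanes with a low ratio, Scram+IgG mouse 2 (5.27) had 162 and ANT008+aPD-1 mouse 3 (7.26) had 1119. ANT008+aPD-1 mouse 1 (5.25) had 757, which rests on 21 counts, and its ratio on 63 and 12 counts. Because Ubb and Dnajc14 both enter the lane size, the scaled count is not independent of this ratio. A further link was not tested.

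Between Scram+aPD-1 and ANT008+aPD-1, 0 genes had an FDR below 0.1 in edgeR, and 40 had an unadjusted p below 0.05, of which 10 were higher after anti-PD-1 alone. Cd14 was lower after anti-PD-1 alone by a log2 difference of -1.26 (edgeR, adjusted p = 0.751), and Ldha was higher by 0.88 (edgeR, adjusted p = 0.751). In ANT008+aPD-1 mice 1 and 3 the lanes held 5776 and 24813 endogenous counts, so low genes there lay at background. The interaction of both agents had 0 genes below an FDR of 0.1 and 9 with an unadjusted p below 0.05.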

How the data were processed

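The authors deposited whole-number counts for each probe and lane as exported from the nCounter software, without background subtraction or scaling, and the vendor's panel definition, from which probe targets were taken. A normalization or gene-level test for these counts is not given in the sources used here. Samples were assigned from their titles. Names were checked against RefSeq GRCm38.p6 (767 of 768 panel genes), which also gave the chromosomes.

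Lane size came from the geometric mean of Dnajc14, Oaz1 and Ubb, the 3 housekeeping genes, of 20, above background in all 12 lanes. It is sensitive to each of them. The 640 endogenous genes that exceeded background in 3 or more lanes were fitted with edgeR 4.0.16 (glmQLFit, glmQLFTest; R 4.3.3), the 4 groups in 1 fit without covariates, with Benjamini-Hochberg adjustment, an FDR threshold of 0.1 and a fold threshold of 4. The script was tested on simulated data. Standard errors came from the test statistic. Named genes were those at an unadjusted p below 0.05, the 5 largest separations without overlap in each direction above background in all 6 lanes, genes fixed by role, and the extremes of each list. Other genes in the text are members of a list or of those counts, chosen after their values were seen. The members and lists were chosen with earlier results of these data known. Alternatives were other scalings, filters and background subtraction, DESeq2 1.42.0, limma 3.58.1 (log2 with a pseudocount of 1, and voom with sample weights), only the 6 lanes compared, a replicate block and each mouse left out.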

Additional observations from a re-analysis of the deposited data

How the results depend on the processing

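The counts of 0 genes higher and 0 lower at an FDR below 0.1 held under every alternative except voom with sample weights, which gave 93 and 50. Of those 93, 72 were above background in all 6 lanes, 1 did not overlap between the groups, and 6 were among the 7 genes named above. Under voom 9 of the 73 named genes changed sign, and 4 of these had an adjusted p below 0.1: Cd3e to 1.66, Cd8a to 1.55, Cd8b1 to 1.71 and Ccl5 to 1.65. The cause was not tested. The count at an unadjusted p below 0.05 was 7. It was 0 with positive control probes or no scaling, 185 under voom, and 13 with the replicate block, which left 0 genes at an FDR below 0.1. It was 0 without the lowest-count lane of each group, an alternative chosen after seeing the data. Leaving out 1 mouse gave between 0 (without Scram+IgG mouse 2) and 81 (without Scram+IgG mouse 1), with 25 without Scram+aPD-1 mouse 2 and 4, 2 and 1 without Scram+aPD-1 mouse 1, Scram+IgG mouse 3 and Scram+aPD-1 mouse 3. Same-numbered mice had deviation correlations of 0.757, -0.017 and 0.175, so the numbers were not taken to pair the samples. Against ANT008+IgG, DESeq2 called 1 gene. Against ANT008+aPD-1, DESeq2 called 5 genes, and leaving out 1 mouse gave 0 to 35 genes, the latter without ANT008+aPD-1 mouse 2. All 7 genes kept their direction under every alternative except positive control scaling, where Btk was at -0.09 and Cd14 at -0.15 with a median of all genes of -0.83. That median was 0.02 with TMM and -0.07 with the total count, and under both Lck, Icos, Tigit and Cd27 changed sign.

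Among the 6 lanes of Scram+aPD-1 and Scram+IgG, the lowest-count lane had the highest scaled background, 46.3. Genes near that level could not be ordered in it. ANT008+aPD-1 mice 1 and 3 had higher scaled backgrounds, of 358 and 149.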
